A study of Homo sapiens with 7 samples.

Results

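The blood clotting factor gene F10 and 8 other genes of coagulation and fibrinolysis were examined in human cardiomyocytes treated with an antisense oligonucleotide (ASO) against MYH7B. The 9 genes, out of 60234 in the deposited expression table, were F10, F7, F3, TFPI, TFPI2, F2R, PROCR, THBD and PLAT. They were taken by gene symbol. F10 was chosen by its TPM in these libraries, where it was higher with the MYH7B ASO, so its values are given as a description without a test. The other 8 were added for their function, with earlier results of these data known. The cells came from WTC-11, an established human induced pluripotent stem cell line, differentiated to cardiomyocytes with small molecules and matured for 35 days. They then received either a scrambled ASO (3 libraries) or the MYH7B ASO (4 libraries), at 2 uM for 96 h, with passive uptake. ASOs are synthetic strands designed to base-pair with one RNA and lower its level or change its use. The labels name no untreated group and do not say whether replicates came from separate differentiations or how many ASO sequences against MYH7B were used, so p-values measure the spread between these libraries, which may be technical.

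The deposited values are TPM, an abundance per transcript length relative to all transcripts of a library, so levels of different genes can be compared but the depth of each library is unknown. In MYH7B ASO replicate 1 the values did not match the gene names of the table, so this library was left out of the main comparison of 3 libraries with 3. Its values after reordering are given beside the others. MYH7B, the ASO target, was at 23.0, 36.5 and 25.1 TPM with the scrambled ASO and at 9.30, 5.65 and 6.31 TPM in MYH7B ASO replicates 2 to 4. It was at 1.29 TPM in replicate 1. Among the cardiomyocyte markers, TNNT2 (cardiac troponin T) ranged from 933 to 1324 TPM over the 6 libraries. Some genes listed as markers of other cells were also high. COL1A1 (a fibroblast collagen) was at 609 to 2215 TPM and KRT19 (a keratin of the epicardial and mesothelial list) at 372 to 575 TPM. Of the same list as KRT19, TBX18, WT1, UPK3B and MSLN averaged less, at 92.0, 44.4, 8.32 and 7.94 TPM over the 6 libraries. The cell types present were not measured. In bulk RNA, fewer cells of a type and less RNA per cell cannot be told apart.

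Coagulation is a cascade of proteases. Tissue factor, encoded by F3, binds factor VII, and the complex activates factor X. Active factor X, with factor V, converts prothrombin to thrombin, which cuts fibrinogen to fibrin and signals to cells through the receptor encoded by F2R. The cascade is held back by tissue factor pathway inhibitor (TFPI) and by protein C, which is activated on cell surfaces by thrombin bound to thrombomodulin (THBD) with the help of the endothelial protein C receptor (PROCR). Fibrin is dissolved by plasmin, which tissue plasminogen activator (PLAT) generates. Factor X and factor VII are best known as vitamin K dependent proteins secreted by the liver, whereas tissue factor is a membrane protein of many tissues, the heart among them.

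RefSeq promoter windows (GRCh38.p14, 250 bases before to 50 after the annotated start) were found for 6 of the 9 genes: F10, F7, F3, TFPI, TFPI2 and PROCR. Those of F10, its neighbour F7 and TFPI2 are shown because F10 and TFPI2 were the members that were higher with the MYH7B ASO, while F7, next to F10, was barely detected. The F10 window is chr13:113122549-113122848 on the plus strand, the F7 window chr13:113105541-113105840 on the plus strand and the TFPI2 window chr7:93890704-93891003 on the minus strand. Capitals mark matches, on either strand, to any of 5 motifs. The GC box was searched as GGGCGG. A core site of the liver-enriched factor HNF4 was searched as CAAAGT, and that of the TEAD factors as GGAATG. The site of AP-1 was searched as TGANTCA, and the TATA box as TATAAA.
F10: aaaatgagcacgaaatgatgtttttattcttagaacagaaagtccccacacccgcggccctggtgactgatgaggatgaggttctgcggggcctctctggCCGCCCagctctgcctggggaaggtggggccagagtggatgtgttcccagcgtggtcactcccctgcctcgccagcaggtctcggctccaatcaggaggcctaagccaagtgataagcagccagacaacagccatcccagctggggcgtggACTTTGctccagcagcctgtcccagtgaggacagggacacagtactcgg
F7: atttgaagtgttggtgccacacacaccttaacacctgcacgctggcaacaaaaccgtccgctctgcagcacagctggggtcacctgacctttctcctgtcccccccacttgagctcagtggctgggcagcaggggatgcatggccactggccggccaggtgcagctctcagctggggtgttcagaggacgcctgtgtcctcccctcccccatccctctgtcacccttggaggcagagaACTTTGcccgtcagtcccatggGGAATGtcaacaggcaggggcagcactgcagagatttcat
TFPI2: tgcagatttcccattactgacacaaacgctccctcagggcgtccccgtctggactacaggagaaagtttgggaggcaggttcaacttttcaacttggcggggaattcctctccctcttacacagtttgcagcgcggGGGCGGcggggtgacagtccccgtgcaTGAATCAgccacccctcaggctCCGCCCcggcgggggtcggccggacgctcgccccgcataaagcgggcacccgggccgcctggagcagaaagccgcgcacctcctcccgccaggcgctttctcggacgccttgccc
The F10 window held 1 GC box and 1 CAAAGT match on the reverse strand, the latter at bases 252 to 257 of the window. The F7 window also held a CAAAGT match on the reverse strand, at bases 239 to 244, and a GGAATG match at bases 261 to 266. The TFPI2 window held 2 GC boxes and 1 AP-1 match but no CAAAGT. Over all 35116 promoter windows, 11.9% held the HNF4 motif, 45.0% a GC box, 14.0% the TEAD motif, 7.71% the AP-1 motif and 11.5% a TATA box. In these 3 windows no motif overlapped another. The F10 and TFPI2 windows had the GC box in common and neither held a TEAD motif or a TATA box. Of the windows not shown, that of F3 held 4 GC boxes, that of PROCR 2 and that of TFPI 0. These windows held no TEAD motif either. Those of F3 and PROCR held a TATAAA match on the reverse strand, at -28 and -82 from the annotated start.

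**Figure D1:**
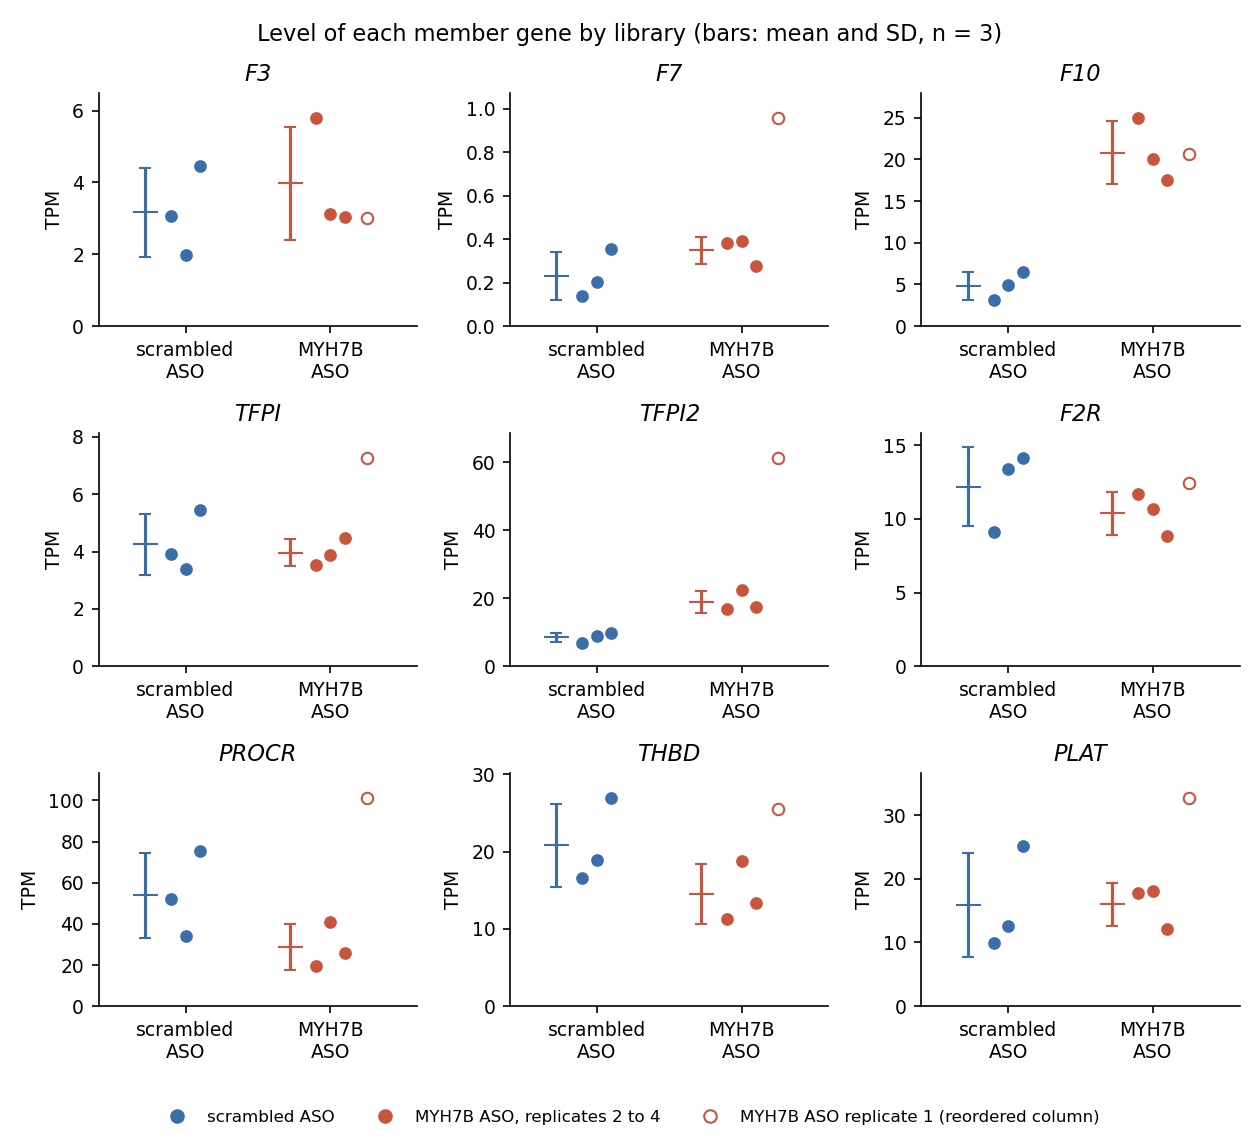
TPM of the 9 genes in each library, one panel per gene with its own axis from 0, with the mean and SD (n = 3) of the scrambled ASO libraries and of MYH7B ASO replicates 2 to 4 as bars. F10 and TFPI2 are the panels in which the groups are apart, and the open circle, MYH7B ASO replicate 1, is the highest point for F7, TFPI, TFPI2, PROCR and PLAT.

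F10 (ENSG00000126218.12, chromosome 13, 113122814 to 113149529) encodes factor X. In scrambled ASO replicates 1 to 3 it was measured at 3.17, 4.90 and 6.54 TPM. With the MYH7B ASO it was 24.9, 20.0 and 17.5 TPM in replicates 2 to 4. The groups did not overlap. The means were 4.87 ± 1.68 TPM with the scrambled and 20.8 ± 3.77 TPM with the MYH7B ASO (SD, n = 3 each), a ratio of 4.27, and the difference on the log2(TPM + 1) scale was 1.92. The library left out, MYH7B ASO replicate 1, had 20.6 TPM, inside the range of the other 3. F10 took 3.02% to 4.97% of the summed TPM of the 9 genes in the scrambled ASO libraries and 14.4% to 22.3% in MYH7B ASO replicates 2 to 4. In replicate 1, where several other members were high, it took 7.79%. In order of mean level F10 went from the sixth of the 9 genes to the second. In the authors' deposited table F10 had a shrunken log2 fold change of 1.70 and a mean normalized count of 599.

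Of the other 8 genes, 7 reached a mean of 1 TPM over the 6 libraries and were tested. A gene is said to be called where the limma p-value, adjusted over all genes tested, was under 0.05. Only TFPI2 was, so 1 of the 7 was called higher and 0 were called lower. Across all 15988 genes tested, 1.66% were called, 0.181% higher and 1.48% lower. By the authors' deposited table, too, 1 of the 7 genes with an adjusted p-value was higher and 0 lower, where 8.71% of all its genes passed. The median log2 fold change of the 7 genes was -0.067, against -0.044 over all genes tested.

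F7 (chromosome 13, 113105788 to 113120681) encodes factor VII, the protease that activates factor X. It lies 2132 bases before F10 on the same strand. F7 was at 0.138, 0.202 and 0.355 TPM with the scrambled ASO and at 0.380, 0.389 and 0.278 TPM in MYH7B ASO replicates 2 to 4. The groups overlapped at this low level, and F7 was not tested. Its mean normalized count in the authors' deposited table was 16.2, with no adjusted p-value. Replicate 1 had 0.955 TPM, the highest of the 7 libraries. F10 exceeded F7 in each library, by 18.4 to 24.3 times with the scrambled ASO and by 51.4 to 65.5 times in MYH7B ASO replicates 2 to 4. In replicate 1 the ratio was 21.6, within the scrambled range, with F7 also higher there.

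Other genes around F10 were compared to show whether it moved with its neighbours. MCF2L (112894378 to 113099739), a guanine nucleotide exchange factor gene, was at 5.92, 3.18 and 2.90 TPM with the scrambled ASO. It was at 14.4, 6.17 and 7.61 TPM in MYH7B ASO replicates 2 to 4 and at 10.8 TPM in replicate 1. The groups did not overlap, as for 7.11% of all genes in this direction, but the log2 fold change of 1.02 (standard error 0.34) was not called (limma adjusted p = 0.203). PROZ, which follows F10 and encodes another vitamin K dependent protein, was listed at 0 in 6 of the 7 libraries and at 0.032 TPM in the other. PCID2, the next protein-coding gene, averaged 12.3 ± 4.25 TPM (SD, n = 3) and 11.5 ± 4.61 TPM (SD, n = 3), and its groups overlapped. The antisense gene F10-AS1 lies within F10 and had at most 0.246 TPM in the 6 libraries. No gene that overlaps F10 had more than 0.620 TPM in these 6 libraries, and KARS1P2, a pseudogene within F10, had 0.635 TPM in MYH7B ASO replicate 1. Whether the counting used strand is not given in the sources used here.

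**Figure D2:**
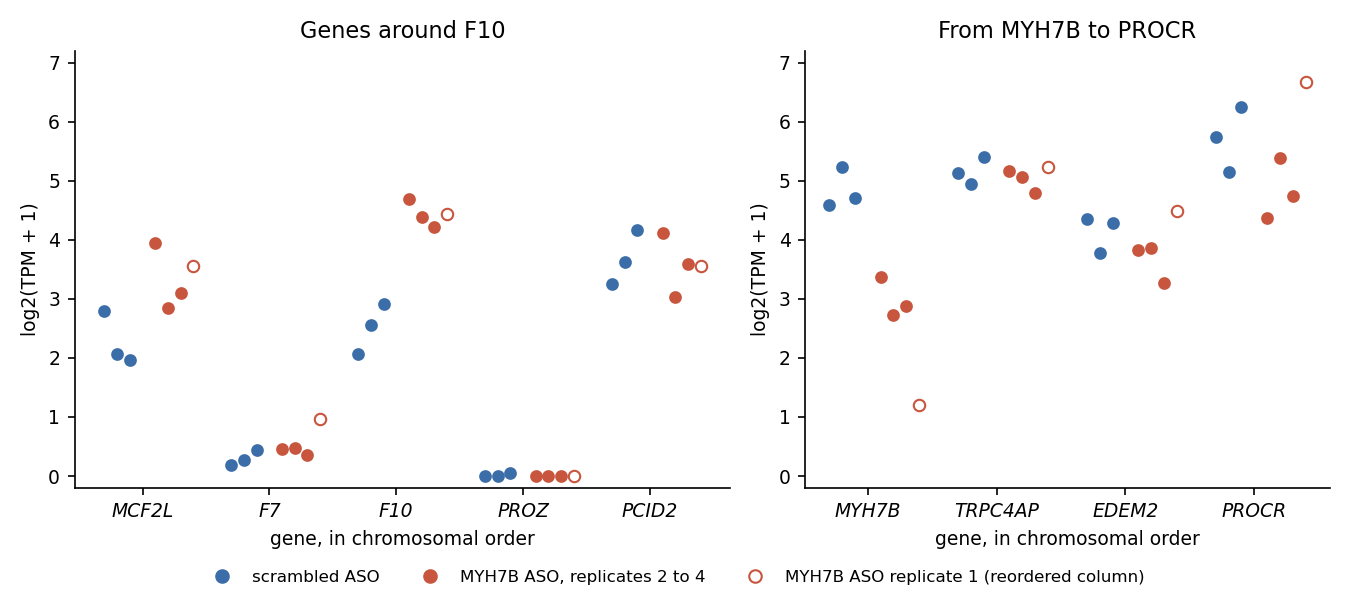
log2(TPM + 1) per library for protein-coding genes in chromosomal order around F10 (left) and from MYH7B to PROCR (right), each point 1 library. F10 and MCF2L have groups that are apart on the left, with F7 and PROZ near 0, and on the right only MYH7B has groups that are apart.

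F3 (chromosome 1, 94529225 to 94541800), the tissue factor gene, was at 3.08, 1.99 and 4.46 TPM with the scrambled ASO and at 5.78, 3.12 and 3.03 TPM in MYH7B ASO replicates 2 to 4. Replicate 2 stood above the others of its group, and the groups overlapped. The log2 fold change was 0.25, with a 95% interval from -0.48 to 0.98 (limma adjusted p = 0.753). RNA of the trigger of the cascade was thus measured at a low level in all 7 libraries, and the difference between groups was within the replicate spread.

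TFPI2 (chromosome 7, 93885396 to 93890991) encodes a secreted Kunitz-type inhibitor of the extracellular matrix that acts on plasmin and other serine proteases. It was at 6.90, 8.83 and 9.63 TPM with the scrambled ASO and at 16.8, 22.5 and 17.2 TPM in MYH7B ASO replicates 2 to 4. The groups did not overlap. The mean rose 2.23 times, with 8.45 ± 1.40 TPM in the scrambled and 18.9 ± 3.17 TPM in the MYH7B ASO group (SD, n = 3 each). On the log2 scale the change was 1.07 (standard error 0.19, 95% interval 0.63 to 1.51, limma adjusted p = 0.0352). Replicate 1 had 61.1 TPM, far above every other library in the same direction. With it, the log2 fold change was 1.48 but the call was lost (limma adjusted p = 0.148). The call was also lost when any single one of the 6 libraries was left out (limma adjusted p from 0.0633 to 0.131), while the log2 fold change stayed between 0.94 and 1.16. TFPI2 had a shrunken log2 fold change of 0.95 in the authors' deposited table (adjusted p-value 0.000268). Genes overlapping TFPI2 on the other strand had at most 0.528 TPM.

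TFPI (chromosome 2, 187464230 to 187565760), the inhibitor of active factor X and of the tissue factor complex, was at 3.91, 3.39 and 5.44 TPM with the scrambled ASO. It was at 3.54, 3.87 and 4.46 TPM in MYH7B ASO replicates 2 to 4, inside the scrambled range. The log2 fold change was -0.067, with a 95% interval from -0.59 to 0.46 (limma adjusted p = 0.922), and with replicate 1 (7.25 TPM) it was 0.12. An antisense gene that overlaps TFPI, AC007319.1, had up to 2.11 TPM. The ratio of TFPI2 to TFPI was 1.76 to 2.61 in the scrambled ASO libraries and 3.87 to 5.81 in MYH7B ASO replicates 2 to 4, without overlap. In replicate 1 it was 8.43.

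F2R (chromosome 5, 76716043 to 76735781), the gene of the thrombin receptor PAR1, was at 9.11, 13.4 and 14.1 TPM with the scrambled ASO and at 11.7, 10.7 and 8.81 TPM in MYH7B ASO replicates 2 to 4. The groups overlapped. The log2 fold change was -0.20, with a 95% interval from -0.67 to 0.28 (limma adjusted p = 0.700). The related receptors F2RL1, F2RL2 and F2RL3 each averaged less than 1 TPM over the 6 libraries, so F2R was the most abundant receptor gene of its family in these cultures.

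PROCR and THBD, whose proteins take part in the activation of protein C, had the most negative log2 fold changes of the 9, but neither was called. PROCR (chromosome 20, 35172073 to 35216240), which presents protein C for activation, had the highest level of the 9 genes in both groups. It was at 52.2, 34.3 and 75.3 TPM with the scrambled ASO and at 19.6, 41.0 and 25.8 TPM in MYH7B ASO replicates 2 to 4. MYH7B ASO replicate 3 lay above scrambled replicate 2, so the groups overlapped. The log2 fold change was -0.88 with a 95% interval from -1.63 to -0.12, and it was not called (limma adjusted p = 0.257). Replicate 1 went the other way, to 101 TPM, the highest of all 7 libraries, and with it the log2 fold change was -0.42 (limma adjusted p = 0.739). In the authors' deposited table PROCR was at -0.61 (adjusted p-value 0.0620). PROCR overlaps MMP24OS on the other strand, which had 43.4 to 77.2 TPM, so reads in the shared stretch cannot be assigned with certainty.

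PROCR shares chromosome 20 with the ASO target and starts 169635 bases after the end of MYH7B. Between them lie the protein-coding genes TRPC4AP and EDEM2. TRPC4AP averaged 35.0 ± 5.64 and 31.2 ± 4.16 TPM (SD, n = 3 each), with a log2 fold change of -0.15 (limma adjusted p = 0.718). EDEM2 averaged 16.9 ± 3.64 and 11.8 ± 2.75 TPM (SD, n = 3 each), with a log2 fold change of -0.48 (limma adjusted p = 0.378). Both had groups that overlapped, like PROCR. MIR499A, a microRNA gene that overlaps MYH7B, was at 94.2, 0 and 6.55 TPM with the scrambled ASO and at 0 in every MYH7B ASO library. Its log2 fold change of -3.16 was not called (limma adjusted p = 0.313).

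THBD (chromosome 20, 23045633 to 23049741), the thrombomodulin gene, was at 16.6, 19.0 and 26.9 TPM with the scrambled ASO and at 11.3, 18.8 and 13.4 TPM in MYH7B ASO replicates 2 to 4. The groups overlapped, and replicate 1 had 25.5 TPM. The log2 fold change was -0.49 with a 95% interval from -1.04 to 0.055 (limma adjusted p = 0.380). In PROCR and THBD, replicate 3 was the highest of MYH7B ASO replicates 2 to 4, as it also was for F7, TFPI2 and PLAT. Scrambled replicate 3 was the highest of its group for every member gene. The members summed to 168 TPM in that library, against 105 and 98.4 TPM in scrambled replicates 1 and 2.

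PLAT (chromosome 8, 42175233 to 42207724), the gene of tissue plasminogen activator, was at 9.89, 12.6 and 25.1 TPM with the scrambled ASO. It was at 17.8, 18.1 and 12.1 TPM in MYH7B ASO replicates 2 to 4, inside the scrambled range, and at 32.6 TPM in replicate 1. The log2 fold change was 0.094, with a 95% interval from -0.64 to 0.83 (limma adjusted p = 0.922). Scrambled replicate 3 stood well above the other scrambled libraries.

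By mean level with the scrambled ASO the order was PROCR (53.9 ± 20.6 TPM), THBD (20.8 ± 5.38), PLAT (15.9 ± 8.14), F2R (12.2 ± 2.70), TFPI2 (8.45 ± 1.40), F10 (4.87 ± 1.68), TFPI (4.25 ± 1.07), F3 (3.18 ± 1.24) and F7 (0.232 ± 0.111), each a TPM mean with its SD (n = 3). Ranges of neighbours in this order overlapped from THBD through PLAT and F2R to TFPI2 and from F10 through TFPI to F3, while PROCR and THBD, TFPI2 and F10, and F3 and F7 were apart. With the MYH7B ASO (replicates 2 to 4) the order was PROCR (28.8 ± 11), F10 (20.8 ± 3.77), TFPI2 (18.9 ± 3.17), PLAT (16.0 ± 3.41), THBD (14.5 ± 3.87), F2R (10.4 ± 1.46), F3 (3.98 ± 1.57), TFPI (3.96 ± 0.465) and F7 (0.349 ± 0.062). Here the ranges of neighbours overlapped all the way from PROCR to F2R, and F2R and F3 as well as TFPI and F7 were apart.

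**Figure D3:**
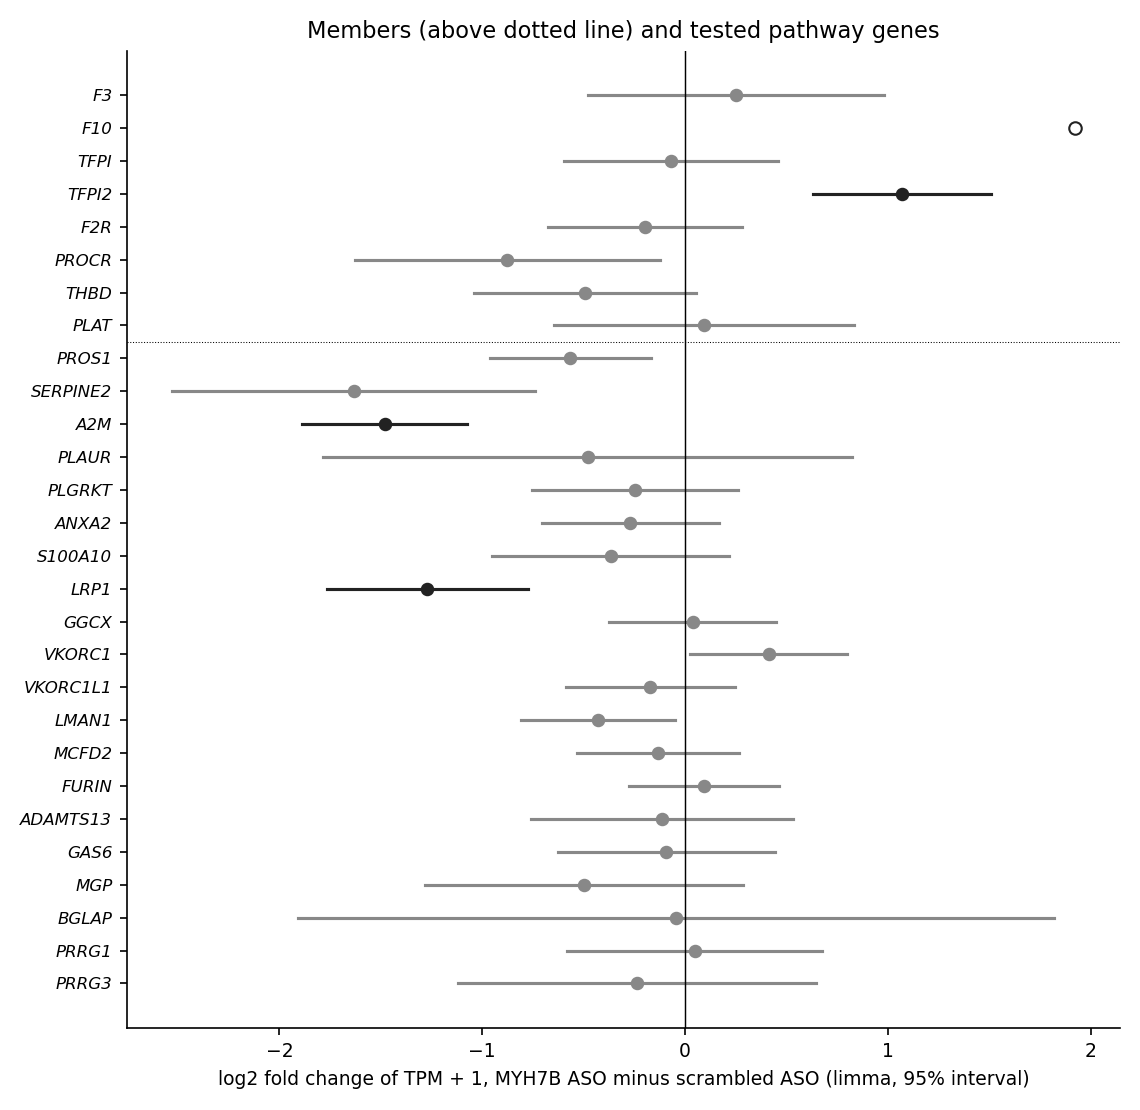
log2 fold change of TPM + 1 (MYH7B ASO replicates 2 to 4 minus scrambled ASO) with its 95% interval from limma for the tested members, above the dotted line, and 20 of the 21 tested pathway genes below it. Dark points were called at an adjusted p under 0.05, which were TFPI2 at 1.07, A2M at -1.48 and LRP1 at -1.27, and F10 is an open point without an interval because it was picked for this difference.

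The rest of the pathway was described from a list of 51 other genes of coagulation, its inhibitors, fibrinolysis and vitamin K dependent carboxylation. Of these, 21 reached a mean of 1 TPM and 30 did not. None was called higher and 2 were called lower (A2M and LRP1), beside 1.66% of all genes called in either direction. Their median log2 fold change was -0.25, against -0.044 over all genes tested. The authors' deposited table held an adjusted p-value for 24 of the 51, with 0 higher and 5 lower at under 0.05, where 8.71% of all its genes passed. A2M, LRP1, SERPINE2 and PROS1 were among the 5.

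All 14 other coagulation factor genes stayed under a mean of 1 TPM, the partners and substrates of factor X among them. F2, the prothrombin gene, was listed at 0 in all 7 libraries, as was F9, the factor IX gene. F5, which encodes the cofactor of active factor X, was at 0.153, 0 and 0.0796 TPM with the scrambled ASO and at 0.0097, 1.48 and 0.617 TPM in MYH7B ASO replicates 2 to 4. The fibrinogen genes FGA, FGB and FGG had at most 0.542 TPM in any of the 6 libraries. No value of the 14 genes in any library passed 1.48 TPM, below the lowest F10 value of 3.17 TPM.

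The 6 listed genes of the vitamin K cycle and of clotting factor secretion all averaged over 1 TPM. VKORC1, which recycles vitamin K, was at 72.4, 95.2 and 108 TPM with the scrambled ASO and at 132, 119 and 113 TPM in MYH7B ASO replicates 2 to 4. The groups did not overlap, but the log2 fold change of 0.41 was not called (limma adjusted p = 0.297). GGCX, the carboxylase of vitamin K dependent proteins, averaged 16.4 ± 1.05 and 17.0 ± 3.25 TPM (SD, n = 3 each), a log2 fold change of 0.039 (limma adjusted p = 0.944). FURIN, a protease that removes propeptides, had a log2 fold change of 0.093 (limma adjusted p = 0.830). LMAN1, a receptor known for carrying factors V and VIII out of the endoplasmic reticulum, had -0.43 (limma adjusted p = 0.268), and its partner MCFD2 had -0.13 (limma adjusted p = 0.760). Of these 6 genes with VKORC1L1, none was called.

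Among the protease inhibitors, A2M, a broad inhibitor that traps proteases, was at 150, 176 and 213 TPM with the scrambled ASO and at 54.5, 75.4 and 60.6 TPM in MYH7B ASO replicates 2 to 4. Replicate 1 had 45.0 TPM, and all 4 lay below the scrambled libraries. The mean fell from 179 ± 31.6 to 63.5 ± 10.8 TPM (SD, n = 3 each), and the log2 fold change was -1.48 (standard error 0.18, limma adjusted p = 0.00875). The call was lost without MYH7B ASO replicate 4 (log2 fold change -1.45, limma adjusted p = 0.0544). It held when each of the other 5 libraries was left out. SERPINE2, a thrombin and plasminogen activator inhibitor, was at 102, 56.0 and 176 TPM with the scrambled ASO and at 34.9, 41.2 and 22.1 TPM in MYH7B ASO replicates 2 to 4. The groups did not overlap, but the log2 fold change of -1.63 was not called (limma adjusted p = 0.0911), and replicate 1 had 154 TPM. With replicate 1 it was -1.07 (limma adjusted p = 0.471), and without scrambled replicate 2 it was -2.05 and called (limma adjusted p = 0.0395). PROS1, the gene of the protein C cofactor protein S, averaged 40.8 ± 8.13 and 26.9 ± 2.22 TPM (SD, n = 3 each), with a log2 fold change of -0.57 (limma adjusted p = 0.170).

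In the fibrinolysis set, LRP1, an endocytic receptor that clears proteases and their inhibitor complexes, was at 59.1, 66.7 and 86.2 TPM with the scrambled ASO and at 24.2, 37.8 and 24.8 TPM in MYH7B ASO replicates 2 to 4. The mean fell from 70.7 ± 14.0 to 28.9 ± 7.69 TPM (SD, n = 3 each), and the log2 fold change was -1.27 (standard error 0.22, limma adjusted p = 0.0298). Replicate 1, at 62.4 TPM, lay inside the scrambled range, and with it the log2 fold change was -0.99 (limma adjusted p = 0.219). The call was also lost without any one of the 6 libraries other than MYH7B ASO replicate 3 (limma adjusted p from 0.0605 to 0.136). ANXA2 and S100A10, whose proteins form a surface receptor for plasminogen and its activator, averaged 280 and 340 TPM over the 6 libraries with log2 fold changes of -0.27 and -0.37, neither called. Of the 21 tested pathway genes, 6 had lower and 1 had higher groups without overlap, where 14.1% and 7.11% of all genes tested did.

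**Figure D4:**
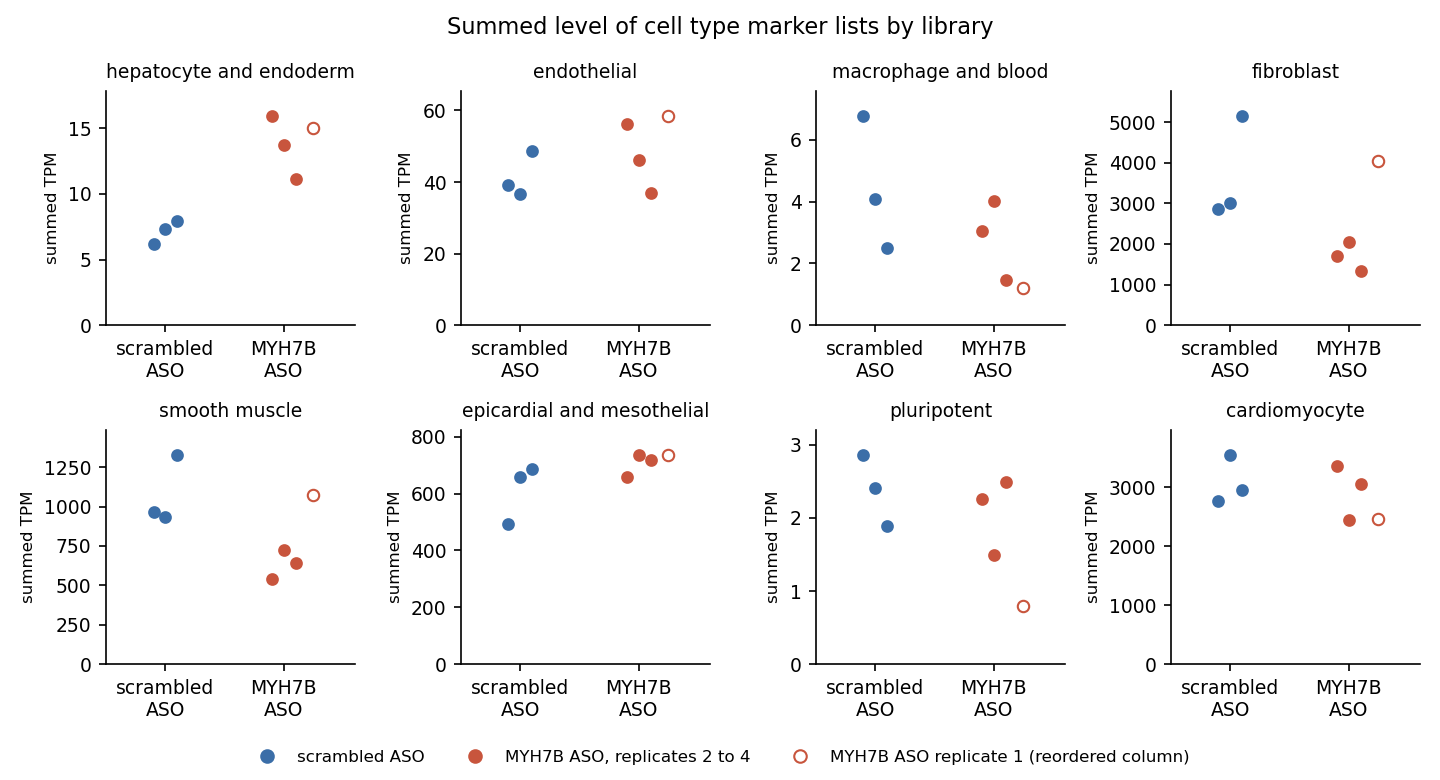
Summed TPM of 8 fixed marker lists per library, each panel with its own axis from 0. The hepatocyte and endoderm sum is higher, and the fibroblast and smooth muscle sums are lower, in MYH7B ASO replicates 2 to 4 than in every scrambled library. Replicate 1 sits within the scrambled range for the fibroblast and smooth muscle sums, though not for every gene in them.

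Marker levels were set beside these results. The 8 hepatocyte and endoderm markers summed to 6.21 to 7.94 TPM with the scrambled ASO and to 11.1 to 16.0 TPM in MYH7B ASO replicates 2 to 4. That difference lay in APOA1, an apolipoprotein gene, at 4.03, 6.39 and 5.57 TPM against 14.8, 12.6 and 9.37 TPM (log2 fold change 1.06, limma adjusted p = 0.0706). The other 7 markers averaged less than 1 TPM. ALB, the albumin gene, was listed at 0 in 4 of the 6 libraries and at 0.583 and 1.01 TPM in the others, and TTR had at most 0.076 TPM. The macrophage and blood markers PTPRC and TYROBP were listed at 0 in all 7 libraries, and that list summed to 2.51 to 6.78 TPM and 1.47 to 4.03 TPM.

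The fibroblast list of 7 genes summed to 2874 to 5162 TPM with the scrambled ASO and to 1332 to 2053 TPM in MYH7B ASO replicates 2 to 4, with COL1A2 and LUM called lower and none called higher. The sum was made up mostly of the 3 collagen genes. PDGFRA of the same list, a growth factor receptor gene, was at 19.8, 27.8 and 23.5 TPM against 41.1, 32.9 and 34.8 TPM, higher without overlap but not called (log2 fold change 0.60, limma adjusted p = 0.152). POSTN, which encodes a matrix protein, had groups that overlapped. The 4 smooth muscle genes summed to 934 to 1330 TPM and 543 to 723 TPM, with MYH11 called lower. CNN1 of that list had groups that overlapped and a log2 fold change of 0.24 (limma adjusted p = 0.454). In replicate 1 the fibroblast sum was 4051 TPM and the smooth muscle sum 1075 TPM, both inside the scrambled range. Of these lists, MYH11, ACTA2 and POSTN were below their scrambled ranges there, at 13.4, 436 and 12.8 TPM. The other genes of these lists were within or above theirs. In this library PROCR, SERPINE2 and LRP1 were also within or above the scrambled ranges, while A2M and PROS1 were below theirs. The 7 endothelial markers summed to 36.5 to 48.8 TPM and 37.1 to 56.1 TPM, with PECAM1 and CDH5 each averaging under 1 TPM. Within this sum TEK was lower without overlap but not called (log2 fold change -1.08, limma adjusted p = 0.111). EGFL7, the largest part of the sum, averaged 21.8 and 31.9 TPM, and its groups overlapped. The epicardial and mesothelial list summed to 492 to 687 TPM and 657 to 737 TPM, and none of its 5 genes was called. KRT19 was higher without overlap, as were 7.11% of all genes tested (log2 fold change 0.31, limma adjusted p = 0.340). The 7 cardiomyocyte genes summed to 2759 to 3550 TPM and 2451 to 3357 TPM, also with none called. RYR2, ACTN2 and TNNI3 of that list were lower without overlap, as were 14.1% of all genes tested. Their log2 fold changes were -1.03, -0.48 and -0.39 (limma adjusted p = 0.0536, 0.156 and 0.372). In replicate 1 these genes were lower still, at 4.39, 72.1 and 59.0 TPM. TNNT2, MYH6, NKX2-5 and MYBPC3 had groups that overlapped. The part of these markers in the differences of F10, TFPI2, PROCR, A2M and LRP1 was not tested.

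Among the other members, the log2(TPM + 1) pattern of TFPI2 over the 6 libraries was the most like that of F10, with a Pearson correlation of 0.956, followed by F7 at 0.800. The F7 value rests on levels of only 0.138 to 0.389 TPM. PROCR had -0.66 and THBD -0.54. Among 10385 other genes that averaged 5 TPM or more, the 5 with the highest correlation were ADSL (0.997), ZNF385A (0.995), PRMT5 (0.993), GALK1 (0.993) and TMEM201 (0.992). These are descriptions over 6 libraries that share a group difference, which F10 was picked for. ZNF385A went from 8.42 to 18.1 TPM, the largest log2 fold change of the 5 at 1.03.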

How the data were processed

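Poly-A selected RNA of 7 libraries was analysed. The authors deposited TPM for 60234 genes, and a comparison table with mean normalized counts (a signal over its libraries), shrunken log2 fold changes with standard errors, a test score, and p-values. Per the submitters' processing notes, DESeq2 was used and the build is GRCh38.p13; the quantifier and the libraries in the authors' comparison are not given in the sources used here. Every per-sample column was used.

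MYH7B ASO replicate 1 filled only the first 58721 rows of the deposited TPM column, as many as there are genes in GENCODE 29. Sorted GENCODE 29 identifiers assigned in turn raised its median correlation with the other libraries, across genes, from 0.408 to 0.955. A shift by 1 row gave 0.416. The main comparison leaves it out, since its gene order matched another annotation release than the table.

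Genes averaging 1 TPM or more in the 6 libraries were tested with limma 3.58.1 (R 4.3.3; lmFit, eBayes with intensity trend) on log2(TPM + 1), which understates changes of low genes, with Benjamini-Hochberg adjustment over 15988 genes and a threshold of 0.05. The script was tested on simulated data. Positions are from GENCODE 29 (GRCh38). Python 3.11.15 and matplotlib 3.10.9 were used for tables and plots.

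Members and lists were chosen with earlier results of these data known. Named genes are the 9 members, MYH7B, pathway genes averaging 1 TPM or more, neighbours of F10 and genes between MYH7B and PROCR, marker genes, and the 5 genes most correlated with F10; 1 tested pathway gene is not reported here. F2, F5, F9, the fibrinogen genes, PROZ and the F2R relatives, below that mean, were named after their values were seen. Alternatives were other pseudocounts, filters, scalings and variance models, replicate blocks, adding replicate 1, and leaving out each library.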

Additional observations from a re-analysis of the deposited data

Results flagged for a closer look

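Each of the 9 genes was examined in the 4 MYH7B ASO libraries for 1 library far from the others, judged by its gap to the nearest library over the whole range of the group (Dixon's 95% limit). For independent, normally distributed values chance gives such a library in about 1 in 20 groups, and 3 of 9 genes had one. The 9 genes shared the same 4 libraries, so an excess over chance cannot be read from this count. TFPI2 had 61.1 TPM in MYH7B ASO replicate 1, against 16.8 to 22.5 TPM in the other 3. F7 had 0.955 TPM in the same library, against 0.278 to 0.389 TPM. F3 had 5.78 TPM in MYH7B ASO replicate 2, with the other 3 at or below 3.12 TPM. Mitochondrially encoded genes took 17.2% of TPM in replicate 1 and 27.4% to 33.6% in the other 6 libraries. The part of this in its TFPI2 and F7 levels was not tested.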

How the results depend on the processing

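F10 stayed higher with the MYH7B ASO under all 19 alternatives, with log2 fold changes from 1.39 (pseudocount 5) to 2.12, as did TFPI2, from 0.82 to 1.66, although the TFPI2 call was lost in 12 of the 19. For F10 this range is a description, since the alternatives refit the libraries in which it was picked for its rise. The members called other than F10 numbered 1; they were 0 with replicate 1 added, without a filter on low values, without the intensity trend and under each replicate block, and 0 to 0 when each library was left out. The 2 called pathway genes became 1 with replicate 1 added and 1 without the intensity trend, 0 without a filter and 0 under each block, and 0 to 2 with a library left out. Of all genes, 265 were called; the count was 170 with replicate 1 added, 40 without a filter, 150 without the intensity trend, and from 53 to 149 with a library left out, each of the 6 lowering it by over 1.5 times. With the replicate block by title number, by description number, or by title number over 7 libraries, 0 genes were called by limma, while 1718, 1096 and 1773 had an unadjusted p under 0.05. Deviations of libraries with the same number had an average correlation of 0.095 by title (2 pairs), -0.058 by description (2 pairs) and 0.060 by title over 7 libraries (3 pairs). For libraries with different numbers the averages were -0.027, 0.017 and -0.020. So few pairs cannot decide whether libraries with the same number were handled together. Quantile normalisation split the calls 55 higher and 202 lower, against 29 and 236. The uncalled members TFPI and PLAT changed sign. TFPI was at 0.12 with replicate 1 added, 0.083 after quantile normalisation and 0.13 under the block by title over 7 libraries, and ran from -0.19 to 0.090 with a library left out. PLAT was at -0.25 under the block by description number and ran from -0.17 to 0.46 with a library left out. Depth is unknown for TPM, and F7, with a mean normalized count of 16.2 in the authors' deposited table, is limited most.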
